A study of Mus musculus with 8 samples.

Results

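The growth factor medium MHM + GF was followed here from 3 to 7 days, in secondary neurospheres that received no CHIL3. The members of this time course were the probe sets with a usable signal in that medium. A signal was taken as usable when it reached 50 on at least 2 of the 4 arrays from MHM + GF, on a scale on which each array averages 100. Of 45101 probe sets on the array, 14894 were members. A further 785 reached 50 on 2 of the 8 arrays of the series only with the help of the other medium, and with them 15679 probe sets were tested. Each gene was read at the probe set with its highest mean, and 8603 of the 8975 genes tested had a member there.

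The cells were mouse neural stem cells (NSCs), which the labels trace to adult brain and the study's methods to embryonic or adult forebrain. Primary neurospheres were grown for 7 days in MHM + GF, dissociated, and returned to culture as secondary neurospheres for 3 or 7 days. MHM is a serum-free hormone mix, and GF stands for the epidermal growth factor (EGF) and fibroblast growth factor 2 (FGF-2) added to it. The 4 arrays of this time course are 2 at 3 days and 2 at 7 days in MHM + GF. The 4 arrays set beside them come from the same days in rcCHIL3, the medium conditioned by a human kidney cell line transfected with Chil3, for which no added growth factors are stated. No allele or genotype was varied, and each array came from an independent experiment. The sources used here do not state whether medium or growth factors were renewed between day 3 and day 7, and no earlier or intermediate day was analysed here.

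Neurospheres are floating clusters that grow from single progenitor cells dividing in response to EGF and FGF-2. The NSCs of the adult forebrain share many genes with astrocytes and divide rarely, whereas their progeny, the transit-amplifying cells, divide fast and give rise to neuroblasts that carry the Dlx homeobox genes. A sphere can hold all these states together with early glia, and the RNA of a whole culture averages them. In such bulk samples, fewer cells of a type and less RNA per cell cannot be told apart.

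The change over time was broad. Expression was compared as log2(signal + 20) in a limma model of all 8 arrays, with p adjusted over the probe sets tested and a threshold of 0.05. From 3 to 7 days, 4639 member probe sets rose and 4000 fell, against a background of 31.1% of all tested probe sets called higher and 26.0% called lower. By gene, 2923 members rose, 2140 fell and 3540 were not called. The balance depended on the scale. Over all tested probe sets 4879 were called higher and 4077 lower, whereas on the signals as deposited 3284 of them were called higher and 3944 lower. Over all genes tested, 34.0% were called higher and 24.2% lower, so that a call by itself was common and a list is read below against those shares. Most changes were small, since over all member genes, called or not, the 5th and 95th percentiles of the change were -0.93 and 0.93. The median change was 0.06 and the median standard error (SE) was 0.09. With a change of at least 2-fold added to the rule, 365 member genes rose and 387 fell, where 4.23% of tested genes rose and 4.33% fell that far. At least 4-fold changes were 47 rises and 76 falls. In 5058 of the 5063 called genes, all 4 pairs of a 7 day array with a 3 day array went the same way. The calls were made from these same arrays, so this agreement is not separate evidence for them. The same holds below wherever the arrays of the days are said to lie apart or not to overlap. The offset of 20 understates the change of dim genes, and the p-values measure the spread between 2 arrays in each group.

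**Figure D1:**
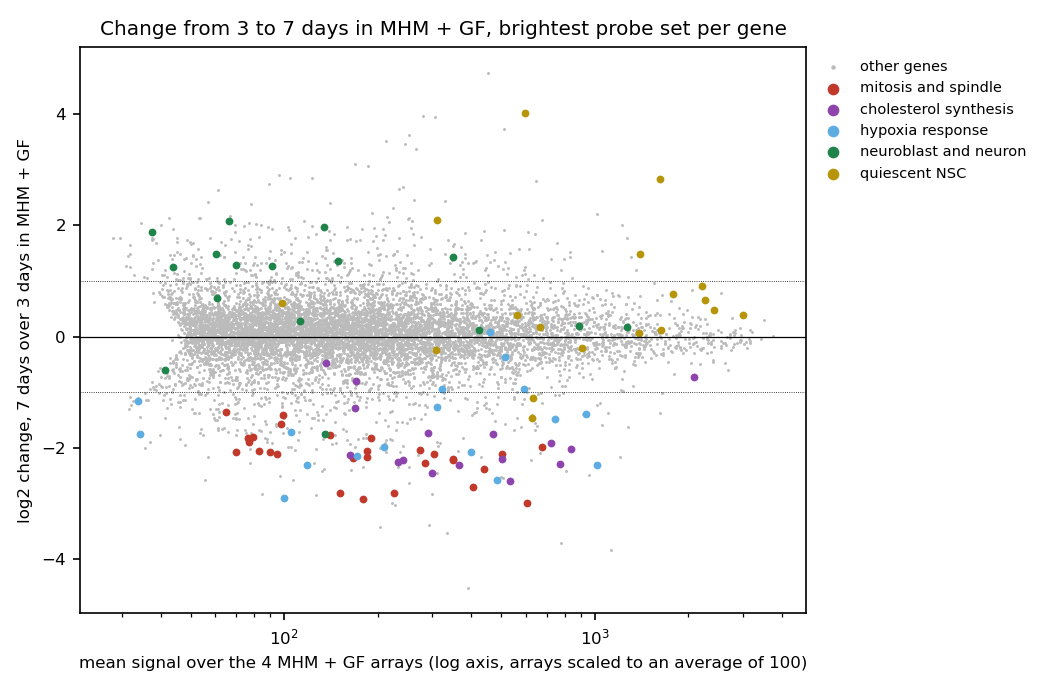
Log2 change from 3 to 7 days in MHM + GF (vertical axis) against the mean signal of the 4 arrays (horizontal log axis) for 8603 genes at their brightest probe set, with dotted lines at a change of 2-fold. All 28 mitosis genes lie below the lower dotted line, with the cholesterol and hypoxia lists mostly below it, while Gfap, Clu and most neuroblast genes lie above 0.

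Genes of mitosis fell without exception among those measured. A listed gene counts as measured when its brightest probe set was a member, and the others were under the filter or not found on the array. Of 30 listed mitosis genes 28 were measured, and 28 fell, each by at least 2-fold, with a median log2 change of -2.09 against 0.07 over all tested genes. The falls ranged from -3.00 to -1.35. In 14 of the 28 genes both 7 day arrays were under 50, so these entered the test through day 3 alone and their count supports nothing by itself. Cdc20, the activator of the anaphase-promoting complex, had signals of 1073 and 1112 at 3 days and 111 and 127 at 7 days, a log2 change of -3.00 (SE 0.08). Ccnb2, which encodes cyclin B2, had signals of 321 and 345 at 3 days and 24.7 and 27.7 at 7 days. Hmmr, a spindle protein, had signals of 277 and 284 at 3 days and 20.1 and 25 at 7 days. In all 3 genes both 3 day arrays lay far above both 7 day arrays. Mki67, the nuclear antigen used to mark cycling cells, had signals of 738 and 765 at 3 days and 129 and 125 at 7 days (log2 change -2.39). Cdk1, the kinase that drives entry into mitosis, changed by -2.21, its partner cyclin A2 (Ccna2) by -2.11, topoisomerase Top2a by -2.12 and the checkpoint kinase Bub1 by -2.18. The smallest fall among the 28 was that of the spindle checkpoint kinase Ttk, with signals of 109 and 95.2 at 3 days and 30 and 25.4 at 7 days. In rcCHIL3, 24 of the 28 fell as well, where 20.4% of all tested genes rose and 18.1% fell over the same days. Their median there was -0.54. The difference between the time effects was called higher in MHM + GF for 24.1% of all tested genes and lower for 19.2%, and it was called lower for all 28. Mki67 had signals of 92.4 and 82.2 at 3 days and 25.7 and 17.6 at 7 days in rcCHIL3, so that all 4 arrays there lay below the 7 day pair of MHM + GF.

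The promoters of these mitosis genes are given as a description of the list. Taken from RefSeq on mouse build GRCm38.p6, the windows ran from 250 bases before to 50 after the gene start, and 24 of the 28 genes matched. The searched words, on either strand, were CCAAT, the core of the binding site of the factor NF-Y, and TTTGAA or TTCGAA, the core of the cell cycle genes homology region known from genes of late cell cycle. CCAAT stood in 21 of 25 windows (84.0%), against 37.4% of all 32851 windows in the table and 38.0% of those of member genes. TTTGAA or TTCGAA stood in 20 (80.0%), against 19.2% of all windows and 13.5% of the windows of member genes. A match is a description of the letters and not a shown binding site. Here and in the lists below, the genes were listed for their known process. Such shares therefore say nothing about the changes measured here, and a link between them was not tested. The 250 bases before the start are printed for Cdc20 (chr4:118437344-118437593, minus strand) and Ccnb2 (chr9:70421555-70421804, minus strand), the genes of the list with a single start, both kinds of match and the largest changes, with every match in capitals. In Ccnb2, 3 CCAAT words begin 87, 54 and 21 bases before the start, an equal spacing.
Cdc20: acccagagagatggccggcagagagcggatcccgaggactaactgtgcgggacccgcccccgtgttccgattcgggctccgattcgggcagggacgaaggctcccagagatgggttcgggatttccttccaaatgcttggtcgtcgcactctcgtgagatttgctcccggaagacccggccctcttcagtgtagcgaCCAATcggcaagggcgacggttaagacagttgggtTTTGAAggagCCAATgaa
Ccnb2: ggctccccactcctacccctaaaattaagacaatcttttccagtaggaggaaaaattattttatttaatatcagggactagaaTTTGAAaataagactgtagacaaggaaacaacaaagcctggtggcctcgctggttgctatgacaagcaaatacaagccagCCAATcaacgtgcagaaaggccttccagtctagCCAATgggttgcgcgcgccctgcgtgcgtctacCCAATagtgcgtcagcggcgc

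Genes of DNA replication fell in larger number than in size. Of 24 measured genes 20 fell and none rose. The median was -0.62, and 3 genes were under 50 on both 7 day arrays. Falls of 2-fold were 3, namely those of Uhrf1, which guides maintenance DNA methylation, with signals of 385 and 374 at 3 days and 111 and 121 at 7 days (log2 change -1.56), thymidine kinase Tk1 (-1.51) and Rrm2 (-1.41), a subunit of ribonucleotide reductase. The subunits of the MCM helicase, which opens the origins, fell less. Mcm5 had signals of 402 and 402 at 3 days and 206 and 212 at 7 days (-0.88), followed by Mcm3 (-0.70), Mcm6 (-0.63), Mcm4 (-0.58) and Mcm7 (-0.29). Mcm2 was not called, with signals of 178 and 139 at 3 days and 117 and 128 at 7 days in which the second 3 day array lay close to the 7 day pair, although its dimmer probe set was called lower (-0.69). Pcna, the sliding clamp of the polymerases, had signals of 1315 and 1383 at 3 days and 987 and 1046 at 7 days, a smaller fall (-0.40). Pola1 (0.10, adjusted p = 0.42) and Fen1 (0.06, adjusted p = 0.8) were not called, and the 3 day arrays of Fen1 lay apart at 149 and 74.8. In rcCHIL3 7 of the 24 fell and 2 rose. The fall was called deeper in MHM + GF for 14 and less deep for 1, Mcm7.

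For this list the searched words were TTTCCCGC, TTTGGCGC and TTTCGCGC, forms of the site bound by E2F factors, on either strand. Of the 24 genes 20 matched the table. One of the words stood in 10 of 25 windows (40.0%), against 1.8% of all windows and 3.6% of those of member genes. Printed by the same rule are Mcm5 (chr8:75109259-75109508, plus strand) and Mcm6 (chr1:128359706-128359955, minus strand), in each of which a pair of matches on opposite strands overlaps.
Mcm5: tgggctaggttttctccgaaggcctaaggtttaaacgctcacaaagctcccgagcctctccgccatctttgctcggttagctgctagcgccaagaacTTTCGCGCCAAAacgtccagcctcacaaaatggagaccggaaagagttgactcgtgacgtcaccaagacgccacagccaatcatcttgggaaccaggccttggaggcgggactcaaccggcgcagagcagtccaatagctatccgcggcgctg
Mcm6: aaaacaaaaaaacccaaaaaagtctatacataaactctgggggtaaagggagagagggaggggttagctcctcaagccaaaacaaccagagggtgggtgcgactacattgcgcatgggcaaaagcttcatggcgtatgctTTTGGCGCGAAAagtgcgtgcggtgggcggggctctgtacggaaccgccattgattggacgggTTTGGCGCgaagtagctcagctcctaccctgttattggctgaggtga

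Regulators of the G1 phase moved in both directions, with 9 of 16 falling and 6 rising. Ccnd1, the cyclin D1 gene that growth factors induce, had signals of 871 and 862 at 3 days and 135 and 132 at 7 days, a log2 change of -2.53. Its relative Ccnd2 rose slightly, from 1095 and 1145 to 1357 and 1338 (0.26), and Ccnd3 fell (-0.30). The kinases that bind D cyclins, Cdk4 (-0.56) and Cdk6 (-0.46), fell. Among CDK inhibitors, Cdkn1c (p57) fell most, from 512 and 570.4 to 64.4 and 53.9 (-2.83). Cdkn2d fell from 332 and 353 to 157.5 and 146.5 (-1.08), and Cdkn1a (p21) fell by less (-0.40). Cdkn1b (p27) rose by 0.18. Mycn, the MYC family factor of neural progenitors, rose, with signals of 42 and 43.1 at 3 days and 207 and 186 at 7 days (1.79). Both 3 day arrays of Mycn were under 50, so it entered the test through day 7 alone. Myc changed by 0.24.

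**Figure D2:**
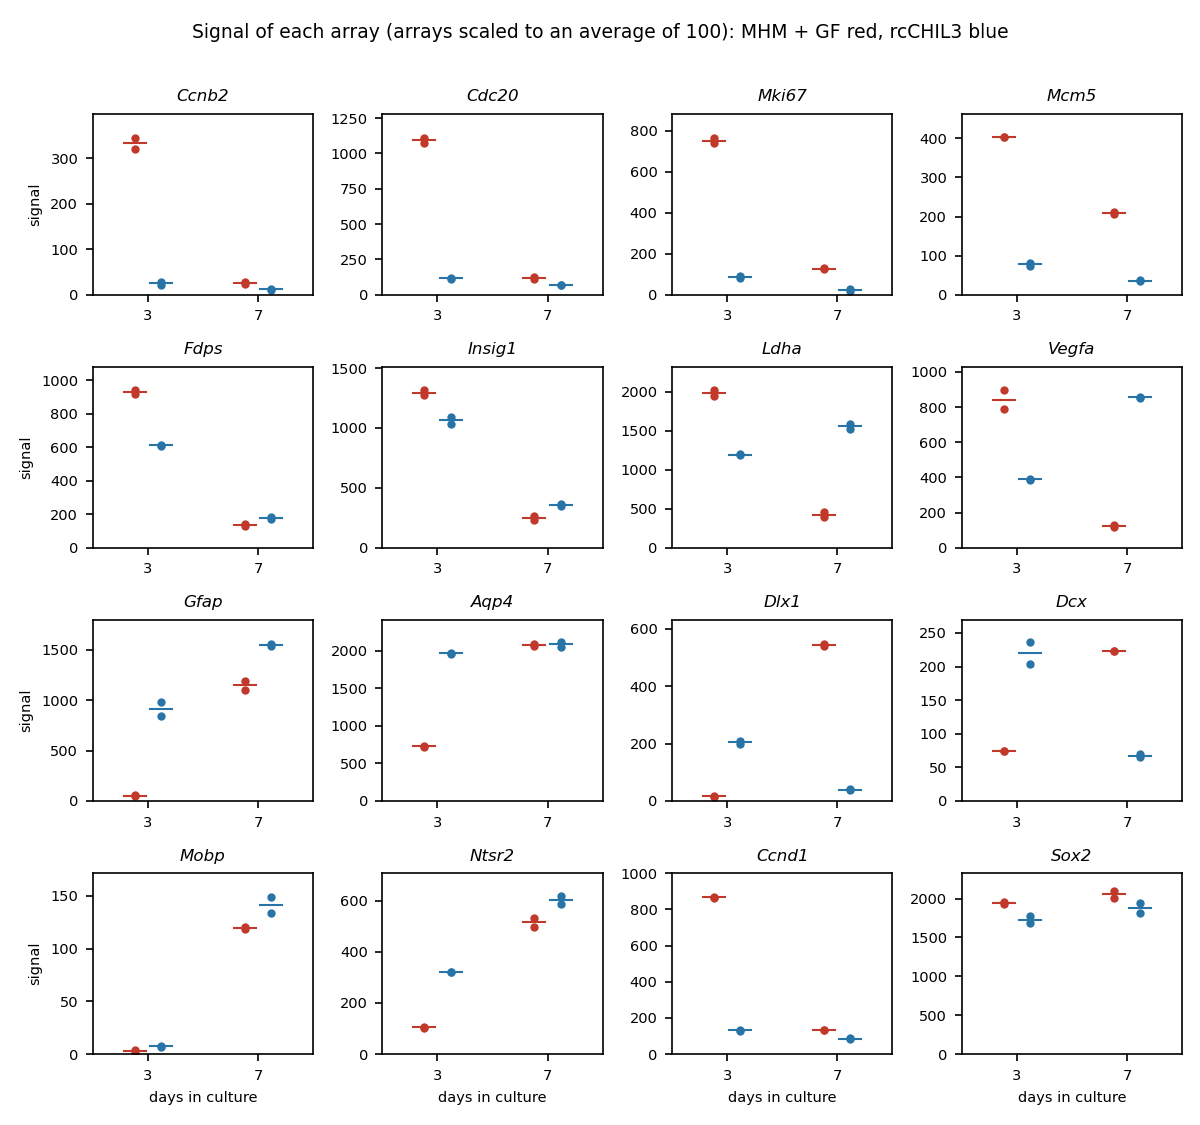
Signal of each array (linear axes, arrays scaled to an average of 100) at 3 and 7 days for 16 genes, with 1 point for each of the 2 arrays of a group and a line at their mean, MHM + GF in red and rcCHIL3 in blue. The mitosis genes are high at 3 days in MHM + GF alone, Dlx1 and Dcx run in opposite directions in the media, and the Sox2 groups lie close together.

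The feedback genes of ERK signalling, which EGF and FGF-2 receptors induce, fell more often than they rose. Of 17 measured genes 10 fell, 6 of them by at least 2-fold, and 3 rose, with a median of -0.44. The ETS factor Etv4 had signals of 84.1 and 91.2 at 3 days and 11.3 and 4.6 at 7 days (-1.96). Its relative Etv5 had signals of 399 and 324 at 3 days and 156 and 132 at 7 days (-1.21). Both groups were apart in each gene, and 4 genes of the list, Etv4 among them, entered the test through 1 day alone. The inhibitors Spry1 (-1.68), Spry4 (-1.46) and the ERK phosphatase Dusp6 (-1.40) fell with them. Dusp4 (0.42) and the FGF inhibitor Il17rd (0.54) rose. The immediate early genes Fos (0.07, adjusted p = 0.28) and Egr1 (0.08, adjusted p = 0.28) were not called, and neither was Spry2 (0.06). The related gene Egr2 fell, with signals of 229 and 237 at 3 days and 81 and 74.6 at 7 days (-1.37). Etv5 went the other way in rcCHIL3, where it rose from 35.8 and 29.1 to 95.7 and 96.2 (1.15), and the difference of the time effects was called. Over the list, that difference was called lower in MHM + GF for 11 genes and higher for 1.

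Of 10 growth factor receptors measured, 5 rose and 3 fell. Egfr, the EGF receptor, was not called, with signals of 846 and 793 at 3 days and 757 and 844 at 7 days, while a dimmer probe set of it was called lower (-0.50). Fgfr1 (0.94) and Fgfr2 (0.82) rose and Fgfr3 fell from 634 and 619 to 250.4 and 259 (-1.24). Pdgfra, the receptor of oligodendrocyte progenitors, fell (-0.94). Pdgfrb, its relative known from pericytes, rose from 10.2 and 10 to 187 and 212 (2.86) and so entered the test through day 7 alone. In rcCHIL3 Pdgfrb had signals of 41.5 and 35.4 at 3 days and 17.4 and 17.6 at 7 days.

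Glycolysis genes fell in MHM + GF and rose in rcCHIL3. Of 14 measured, 12 fell in MHM + GF and 1 rose, with a median of -1.42, and 9 of the falls reached 2-fold. Hk2, a hexokinase that starts glucose breakdown, had signals of 380.1 and 399 at 3 days and 19.4 and 16.8 at 7 days (-3.43, SE 0.09). Lactate dehydrogenase Ldha had signals of 1945 and 2029 at 3 days and 458 and 398 at 7 days (-2.17). Pyruvate kinase Pkm had signals of 1019 and 960.0 at 3 days and 299.9 and 288 at 7 days (-1.68). The days did not overlap in these genes, but Hk2 was under 50 on both 7 day arrays and so entered the test through day 3 alone. The glucose transporters Slc2a3 (-1.62) and Slc2a1 (-1.47) fell with them, and so did Tpi1 (-1.37), Pgk1 (-1.02) and Aldoa (-0.68). The exceptions were Aldoc, the brain aldolase, which was not called (0.04, with -0.41 at a dimmer probe set), and Hk1, the constitutive hexokinase, which rose by 0.42. Gapdh was read on array control probe sets alone, so it was not tested. Its 5′ control probe set gave 2549.8 and 2499 at 3 days and 1737 and 1538 at 7 days. In rcCHIL3, 12 of the 14 rose and none fell, with a median of 0.41. The time effect was called lower in MHM + GF for 13 and higher for Hk1.

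The hypoxia response list held no glycolytic enzyme, and 16 of its 17 measured genes fell, 13 by at least 2-fold, with a median of -1.72. In 5 of the 17, both 7 day arrays were under 50. These genes are targets of the hypoxia-inducible factors, which are stable when oxygen is low. Vegfa, the vascular growth factor, had signals of 789 and 896 at 3 days and 129 and 117 at 7 days (-2.59) in MHM + GF. In rcCHIL3 the order was turned, with 394 and 384 at 3 days and 856 and 854 at 7 days (1.1). Ankrd37 had signals of 182 and 202 at 3 days and 9.1 and 7.6 at 7 days (-2.90). The stress gene Ddit4 (-2.31), adrenomedullin, Adm (-2.15), the oxidoreductase Ero1a (-2.08) and the collagen hydroxylases P4ha2 (-2.32) and P4ha1 (-1.98) fell with them. Bnip3, a mitophagy receptor, had signals of 1410.2 and 1335 at 3 days and 511 and 503 at 7 days (-1.40). The smallest fall was that of Ndrg1, from 567 and 597 to 435 and 457 (-0.37), although in rcCHIL3 Ndrg1 had the largest rise of the list, from 80.6 and 76.4 to 655 and 593 (2.71). Mxi1 was not called (0.09, adjusted p = 0.38). In rcCHIL3, 14 of the 17 rose and none fell, with a median of 0.86, and the time effects were called different for 16.

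The promoters of both lists were searched for ACGTG, the core of the hypoxia response element, on either strand. It stood in 12 of 22 windows of the hypoxia list (54.5%, 16 genes matched) and in 12 of 20 windows of the glycolysis list (60.0%, 13 genes matched). The share was 19.6% of all windows and 26.2% of those of member genes. The word CACGTG holds it on both strands and is also the E-box core of other factors. Printed for the hypoxia list are Ankrd37 (chr8:45999851-46000100, minus strand) and P4ha2 (chr11:54100674-54100923, plus strand), and for glycolysis Hk2 (chr6:82774455-82774704, minus strand) and Slc2a1 (chr4:119108495-119108744, plus strand), with matches in capitals and chosen as above.
Ankrd37: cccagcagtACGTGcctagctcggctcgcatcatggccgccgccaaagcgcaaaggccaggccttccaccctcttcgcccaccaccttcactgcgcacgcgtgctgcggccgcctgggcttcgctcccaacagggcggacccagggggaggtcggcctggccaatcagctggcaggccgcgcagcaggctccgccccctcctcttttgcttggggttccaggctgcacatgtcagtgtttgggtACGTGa
P4ha2: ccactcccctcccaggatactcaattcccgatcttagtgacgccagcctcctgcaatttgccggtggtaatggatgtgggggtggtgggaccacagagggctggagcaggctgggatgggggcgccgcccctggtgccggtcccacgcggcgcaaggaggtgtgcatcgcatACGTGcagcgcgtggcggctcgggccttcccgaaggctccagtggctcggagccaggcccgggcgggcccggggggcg
Hk2: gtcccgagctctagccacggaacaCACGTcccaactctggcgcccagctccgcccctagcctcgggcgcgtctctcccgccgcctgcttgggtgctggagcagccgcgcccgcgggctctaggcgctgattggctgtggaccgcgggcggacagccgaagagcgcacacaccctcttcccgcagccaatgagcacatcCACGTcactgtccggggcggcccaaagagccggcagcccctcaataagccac
Slc2a1: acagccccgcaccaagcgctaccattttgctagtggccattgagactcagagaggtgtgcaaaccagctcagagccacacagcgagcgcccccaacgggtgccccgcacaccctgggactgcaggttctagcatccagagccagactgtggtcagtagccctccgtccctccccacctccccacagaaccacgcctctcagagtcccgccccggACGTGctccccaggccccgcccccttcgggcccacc

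Cholesterol synthesis fell in every measured gene. The list had 16 measured genes, all of which fell, 13 by at least 2-fold, and none was under 50 on both arrays of a day. The median was -2.07. Fdps, which makes the precursor farnesyl diphosphate, had signals of 916 and 941 at 3 days and 145 and 128 at 7 days (-2.60). Lanosterol synthase Lss (-2.46), lanosterol demethylase Cyp51 (-2.32) and squalene epoxidase Sqle (-1.75) fell with it. Insig1, a target of the SREBP factors whose protein holds them back when sterols are plentiful, had signals of 1273 and 1319 at 3 days and 235 and 262 at 7 days (-2.30). The smallest falls were those of Sc5d (-0.47), Hmgcs1 (-0.73) and Srebf2 (-0.80), the gene of SREBP-2. The list fell in rcCHIL3 too, all 16 genes with a median of -0.90, and the fall was called deeper in MHM + GF for 15. In fatty acid synthesis 8 of 12 genes fell and 1 rose. The desaturase Scd1 had signals of 1611 and 1682 at 3 days and 249.9 and 299.8 at 7 days (-2.50). Fatty acid synthase, Fasn, had signals of 783 and 741 at 3 days and 353 and 326 at 7 days (-1.12). The desaturase Scd2 was not called, with signals of 3055 and 3256 at 3 days and 2897 and 2873 at 7 days, whereas its dimmer probe sets fell (-1.76 and -1.11).

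**Figure D3:**
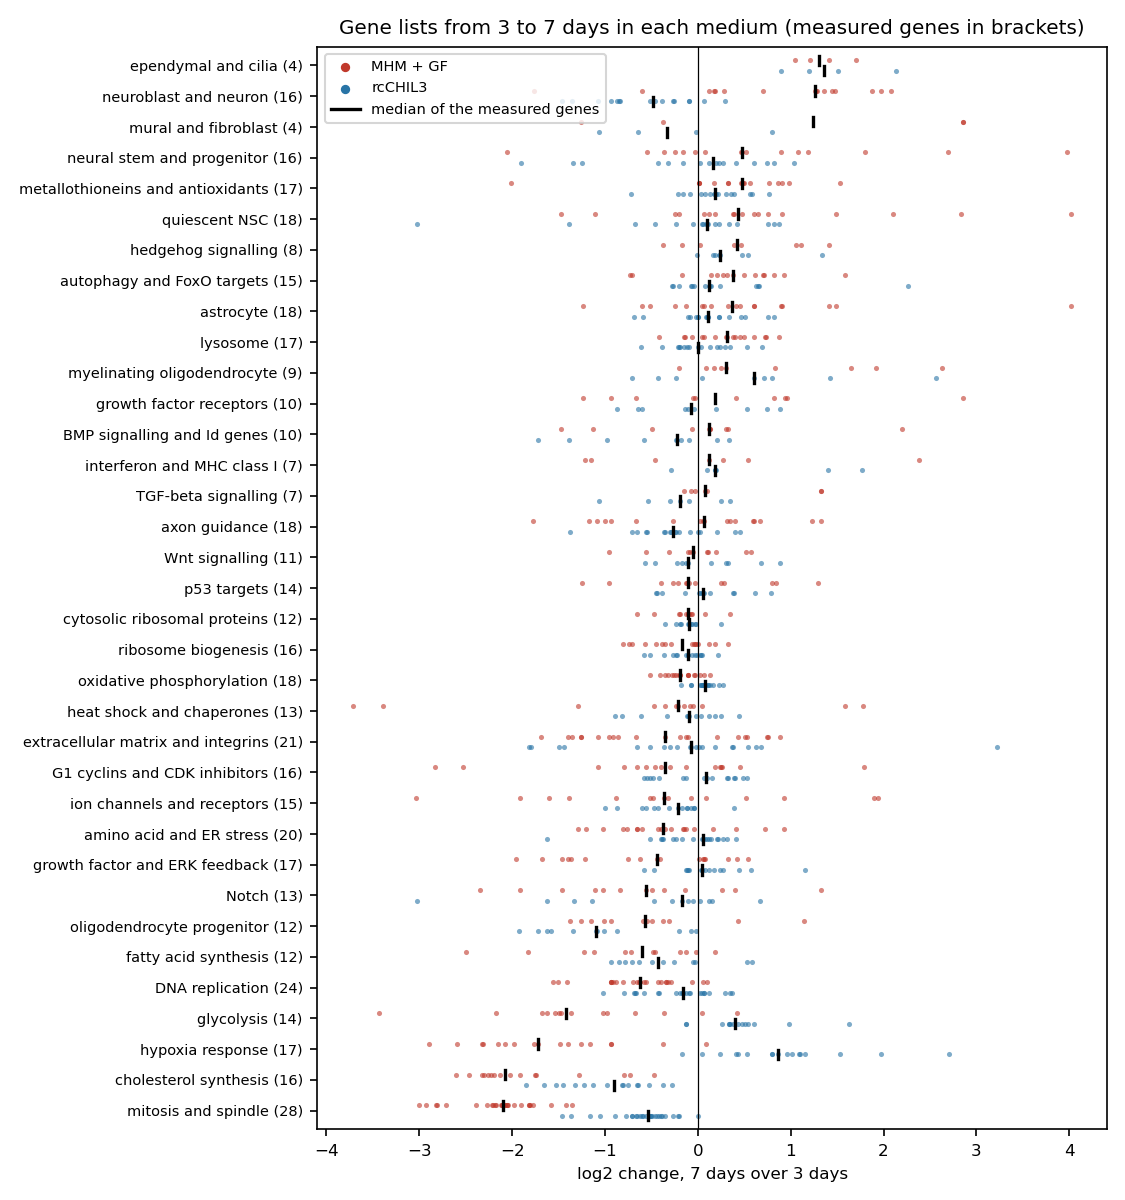
Log2 change from 3 to 7 days of each measured gene (points) in the 35 lists with at least 4 measured genes, MHM + GF in red above and rcCHIL3 in blue below, with black bars at the medians. Glycolysis and hypoxia lie left of 0 in MHM + GF and right of it in rcCHIL3, neuroblast genes lie the other way, and cholesterol synthesis lies left of 0 in both media.

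Housekeeping lists moved little. Of 18 subunits of oxidative phosphorylation 10 fell and none rose. The median was -0.19 and no change reached 2-fold. Cyc1, cytochrome c1, fell most, from 1043 and 1023 to 700.4 and 738. Of 12 cytosolic ribosomal protein genes 4 fell and none rose (median -0.11), and Rplp0 had signals of 2734 and 2643 at 3 days and 2499.6 and 2479 at 7 days. In ribosome biogenesis 8 of 16 genes fell and 1 rose, with the snoRNA-binding factor Nop58 (-0.81) and fibrillarin, Fbl (-0.71), in front.

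Stress lists were mixed. In the amino acid and endoplasmic reticulum stress list 12 of 20 genes fell and 3 rose. Its transcription factors Atf4, with signals of 1092 and 1035 at 3 days and 487 and 541 at 7 days (-1.02), and Atf3 (-1.20) fell. Atf3 was under 50 on both 7 day arrays. The chaperone Hspa5 fell as well (-0.76). The co-chaperone Dnajb9, a target of the same unfolded protein response, rose by 0.93, and so did Pdia4 (0.72). Among 13 heat shock genes 7 fell and 2 rose, and 3 of the 13 entered the test through 1 day alone. Hspa1b, an inducible Hsp70 gene, had signals of 1561 and 1364 at 3 days and 101 and 85 at 7 days (-3.71), and its near-identical copy Hspa1a changed by -3.39. The probe sets of the pair may read each other's RNA, so the values are not separate evidence. The constitutive Hspa8 was not called at its brightest probe set (-0.08) and fell at a dimmer one (-1.56). The small heat shock genes Hspb8, with signals of 43.5 and 33 at 3 days and 174 and 184 at 7 days (1.78), and Cryab (1.59) rose, and Hspb1 fell (-1.29). Of 14 p53 targets 5 rose and 4 fell, near the shares over all tested genes (34.0% higher and 24.2% lower). Gadd45a, a growth arrest gene, rose from 65.8 and 77.6 to 203 and 203 (1.29). The largest falls were those of Plk2, from 199.5 and 189 to 76.4 and 63.7 (-1.25), and Bbc3 (-0.96). Mdm2 (-0.21, adjusted p = 0.063) and Ccng1 (-0.03) were not called at their brightest probe sets, and dimmer probe sets of both were called lower (-0.34 for Mdm2).

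Genes of the lysosome, of autophagy and of antioxidant defence rose more often than they fell, mostly by less than 2-fold. Of 17 lysosome genes 10 rose and 1 fell (median 0.31). The cathepsin Ctsl had signals of 675 and 666 at 3 days and 1258 and 1219 at 7 days (0.87). The membrane protein Lamp2 had signals of 987 and 943 at 3 days and 1605 and 1600.3 at 7 days (0.72). Npc1, the cholesterol exporter of the lysosome, was the gene that fell (-0.42). Of 15 genes of autophagy and FoxO targets 11 rose and 2 fell (median 0.38). Txnip, which restrains glucose uptake, had signals of 273 and 281 at 3 days and 882 and 853 at 7 days (1.58), the only change of 2-fold in that list. The autophagy receptor Sqstm1 (0.82), the factor Foxo1 (0.93) and the autophagosome protein Map1lc3b (0.70) rose. Txnip rose further in rcCHIL3 (2.26). Of 17 metallothionein and antioxidant genes 12 rose and 1 fell. Mt3, the brain metallothionein, had signals of 389 and 451 at 3 days and 1278 and 1209.6 at 7 days (1.53), and catalase, Cat, rose by 0.91. The gene that fell was the secreted peroxidase Gpx3 (-2.01), under 50 on both 7 day arrays.

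Markers of quiescent NSCs and of astrocytes rose in part. Of 18 measured quiescent NSC genes 12 rose and 2 fell, 4 of the rises reached 2-fold, and the median was 0.44. Gfap, the intermediate filament of NSCs and astrocytes, had signals of 57.6 and 46.3 at 3 days and 1101 and 1189 at 7 days (4.02, SE 0.09). The secreted chaperone Clu had signals of 382 and 391 at 3 days and 2789 and 2931 at 7 days (2.83). In both genes the 7 day arrays lay far above the 3 day arrays. The neurotensin receptor Ntsr2 had signals of 106 and 103 at 3 days and 499 and 532 at 7 days (2.10). The water channel Aqp4 had signals of 738 and 717 at 3 days and 2069 and 2089 at 7 days (1.49). Neither of these overlapped between the days. Smaller rises were those of the gap junction gene Gja1 (0.91), Sparcl1 (0.76), Apoe (0.65) and Vcam1 (0.38). The genes that fell were Id3 (-1.47) and Hes5 (-1.11), effectors of BMP and Notch signals. The glutamate transporters Slc1a3 (0.07, adjusted p = 0.5) and Slc1a2 (-0.25, adjusted p = 0.09) were not called. Of 18 astrocyte genes, which share Gfap, Aqp4, Gja1, Slc1a2 and Slc1a3 with the list above, 10 rose and 3 fell. Angiotensinogen, Agt, rose from 64.6 and 44.5 to 163 and 190.1 and S100b by 0.61, while Aldh1l1 (-0.60), Slc4a4 (-0.52) and Fgfr3 fell. In rcCHIL3 Gfap already had signals of 842 and 978 at 3 days and Aqp4 of 1959 and 1973. The time effect was called higher in MHM + GF for 12 of the 18 quiescent NSC genes and lower for 1.

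Markers of neural stem and progenitor cells moved in both directions. Of 18 listed 16 were measured, and 9 rose and 5 fell. In 4 of the 16 both arrays of one day were under 50, Nes at 7 days and Dlx1, Gsx2 and Nr2e1 at 3 days. The list includes Dlx1 and Dlx2, which are described with the neuroblast genes below and are the largest 2 of its 9 rises. Sox2, the factor of the neural stem state, was not called, with signals of 1936 and 1956 at 3 days and 2096 and 2014 at 7 days (0.08, adjusted p = 0.28). Nes, the progenitor filament nestin, fell from 187 and 186 to 32.2 and 27.7 (-2.05), with both 7 day arrays under 50. Vim (-0.16) and Fabp7 (-0.25) fell slightly. Prom1 (1.19), Pax6 (1.08), Sox9 (0.90) and Sox1, with signals of 142 and 85.9 at 3 days and 479 and 395 at 7 days (1.80), rose.

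The Dlx genes and markers of neuroblasts rose in MHM + GF. Dlx1 had signals of 18.1 and 13.5 at 3 days and 541 and 546 at 7 days (3.98, SE 0.10). Dlx2 had signals of 46.5 and 53.6 at 3 days and 386 and 481 at 7 days (2.69). Both encode homeobox factors of the striatal and olfactory GABAergic lineage, and in neither did the days overlap. Of 16 measured neuroblast and neuron genes 13 rose, 9 by at least 2-fold, and 2 fell, with a median of 1.27. In 9 of the 16 both arrays of one day were under 50, mostly at 3 days, so these genes could hardly enter the test without a change. Dcx, the microtubule protein doublecortin that marks neuroblasts, had signals of 74.7 and 74.1 at 3 days and 223 and 223 at 7 days (1.36). Gad1, which makes GABA, had signals of 176 and 180.4 at 3 days and 542 and 496 at 7 days (1.44). Tagln3, a gene of young neurons, had signals of 46.8 and 39 at 3 days and 233 and 219.6 at 7 days (1.97). The tubulin Tubb3 (1.48), Dlx5 (1.88) and Stmn2 (2.08) rose with them. The growth cone gene Gap43, with signals of 207 and 233 at 3 days and 53.8 and 48.1 at 7 days (-1.76), and the synaptic gene Snap25 (-0.60) fell. Rbfox3, the nuclear marker of mature neurons, was under the filter, with signals of 14.3 and 15.3 at 3 days and 28.2 and 37.5 at 7 days. In rcCHIL3 the list went the other way, with 11 genes falling and 1 rising (median -0.49). Dlx1 had signals of 211 and 197 at 3 days and 36.9 and 42.9 at 7 days there, so that its 3 day arrays were the high ones. Dcx had signals of 236 and 204 at 3 days and 69.6 and 64.8 at 7 days there. The time effect was called higher in MHM + GF for 14 of the 16 and lower for 1, Gap43.

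In the oligodendrocyte lineage most measured progenitor genes fell and most measured myelin genes rose. Of 12 measured genes of oligodendrocyte progenitors 9 fell and 2 rose (median -0.57). Olig1, a factor of that lineage, had signals of 1566 and 1637 at 3 days and 625 and 585 at 7 days (-1.38). The proteoglycan Cspg4 (-1.26), Nkx2-2 (-1.15), Pdgfra and Sox10 (-0.59) fell as well. C1ql1 rose from 22.4 and 30.2 to 82.7 and 80.2 and entered the test through day 7 alone. Among 9 measured genes of myelinating cells 6 rose, 1 fell and 2 were not called (median 0.30). The gene that fell was Ugt8a, from 360.1 and 356.5 to 315.8 and 302.3 (-0.20). Mobp, a structural protein of compact myelin, had signals of 3.8 and 1.3 at 3 days and 121 and 118 at 7 days (2.63). Mag, an adhesion protein of the inner myelin layer, had signals of 31.6 and 31.3 at 3 days and 172 and 178 at 7 days (1.92). Both were under 50 at 3 days, as was Tspan2. The tight junction gene Cldn11 had signals of 119 and 113 at 3 days and 427 and 389 at 7 days (1.65). Mbp, the myelin basic protein gene, rose by 0.83 at its brightest probe set, and of its 7 kept probe sets a dim one went the other way (-0.29). Mog, a late myelin gene, was under the filter, with signals of 0.9 and 0.3 at 3 days and 4.5 and 9.8 at 7 days. In rcCHIL3 progenitor genes fell further (median -1.09) and the time effect was called higher in MHM + GF for 8 of the 12. Mobp rose there too (2.56), and the difference between its time effects was not called (0.07).

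Ependymal and other lineages left few measured genes. All 4 measured ependymal genes rose, and all had both 3 day arrays under 50, while 11 others of the list were under the filter. Foxj1, the master factor of motile cilia, had signals of 38.1 and 41.2 at 3 days and 129.5 and 149 at 7 days (1.41). The 4 rose in rcCHIL3 as well, and no difference of the time effect was called for them. Ttr, the transthyretin gene of the choroid plexus, had signals of 30.3 and 171 at 3 days and 282 and 549 at 7 days, and the arrays of each day differed so widely (SE 0.58, adjusted p = 0.0095) that its size is poorly known. Otx2, another gene of that tissue, was not called, and 6 further markers were under the filter. All 12 markers of microglia and macrophages and all 10 endothelial markers were under the filter. The summed signal of the 12 was 44.1 and 45.3 at 3 days and 50.2 and 86.2 at 7 days, and that of the 10 was 57.6 and 43.1, then 49.5 and 52.6. Of the mural markers, Pdgfrb and Rgs5, from 17 and 12.6 to 227 and 237 (2.86), rose, whereas Cspg4 and Acta2 (-0.38) fell. All of these but Cspg4 entered the test through 1 day alone. The fibroblast collagens Col1a1, Col1a2 and Col3a1 were under the filter on all 4 arrays.

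Among signalling pathways, Notch genes fell most often. Of 13 measured, 9 fell and 3 rose (median -0.56). The target Hey1 had signals of 435 and 433 at 3 days and 63.5 and 75.5 at 7 days (-2.35). The ligand Dll3 had signals of 491 and 535 at 3 days and 121 and 121 at 7 days (-1.92). The feedback target Nrarp fell as well (-1.46). Hes5 had signals of 863 and 875 at 3 days and 458 and 333 at 7 days (-1.11) and fell further in rcCHIL3 (-3.02). The receptor Notch3 fell (-1.02) and Notch2 rose (1.33). Notch1 rose at its brightest probe set (0.40) and fell at another (-0.66), so its direction is unsettled. Of 10 BMP pathway genes 3 rose and 3 fell, near the shares over all tested genes (34.0% higher and 24.2% lower). The Id genes, targets of BMP signals, divided. Id3 had signals of 915 and 945 at 3 days and 343 and 306 at 7 days, Id1 fell (-1.13), Id2 was not called (0.12), and Id4 rose, with signals of 326 and 376 at 3 days and 1741 and 1624 at 7 days (2.20). The antagonist Nog was under the filter, with signals of 6.8 and 8.5 at 3 days and 3.1 and 3.4 at 7 days. Of 8 hedgehog genes 5 rose and 1 fell, with the factor Gli2 (1.41) and the coreceptor Gas1 (1.11) rising and the receptor and target Ptch1 (-0.38) falling. In the TGF-beta list the ligand Tgfb2 (1.33) and the target Ccn2 (1.33) rose and 5 genes were not called. Ccn2 had signals of 33.4 and 31.1 at 3 days and so entered the test through day 7 alone. In the Wnt list 3 of 11 genes rose and 3 fell, also near those shares, and none changed 2-fold.

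Genes of the matrix, of guidance and of excitability were divided. Of 21 matrix and integrin genes 11 fell and 7 rose. The progenitor matrix proteins tenascin C (Tnc), with signals of 823 and 876 at 3 days and 253 and 247 at 7 days (-1.69), and versican, Vcan (-1.40), fell, and Col9a3 (0.88) and Sparc (0.74) rose. Fibronectin, Fn1, had signals of 194 and 191 at 3 days and 63.9 and 62.8 at 7 days in MHM + GF. It moved the other way in rcCHIL3, with 26.4 and 16.7 at 3 days and 355 and 375 at 7 days. Of 18 axon guidance genes 8 rose (5 on the deposited scale) and 7 fell, and 4 of the 18 entered the test through 1 day alone. The netrin receptor Dcc (-1.78) and the slit receptor Robo1 (-1.17) fell, and the ephrin receptor Epha4 (1.33) and the plexin Plxna2 (1.23) rose. Of 15 channel and receptor genes 9 fell and 4 rose, and 7 of the 15 entered the test through 1 day alone. The glutamate receptor Grm5 had signals of 396 and 445 at 3 days and 36.5 and 30.2 at 7 days (-3.04), and the potassium channel Kcnk2 rose from 174 and 174 to 687 and 721 (1.90). Of 7 interferon and MHC class I genes 3 rose and 3 fell, with Gbp2 (2.38) rising and H2-K1 (-1.22) falling, and 11 others were under the filter. Gbp2 had signals of 10.8 and 12.4 at 3 days and entered the test through day 7 alone.

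The largest changes over all genes were ranked among genes with a mean of at least 200 on the brighter day. The first rise was that of Rnase1, a secreted ribonuclease, with signals of 16.3 and 11.7 at 3 days and 831 and 956 at 7 days (4.75), and its neighbour in the same gene family, Rnase4, rose by 3.63. The matrix protein gene Efemp1 had signals of 15 and 24.6 at 3 days and 580.3 and 599.6 at 7 days (3.95). Angptl4, a regulator of lipoprotein lipase, had signals of 55.9 and 53 at 3 days and 1022 and 915 at 7 days (3.73). Angptl4 is also known as a target of the hypoxia-inducible factors and moved against the hypoxia list. The ion pump regulator Fxyd1 (3.52), the calcium-binding S100a4 (3.46), the sphingosine receptor S1pr3 (3.37), galectin-3, Lgals3 (3.08), and the imprinted factor Plagl1 (2.80) followed. Of these rises, Rnase1, Rnase4, Efemp1, Fxyd1, S100a4, S1pr3 and Lgals3 were under 50 on both 3 day arrays and entered through day 7 alone.
The first fall was that of Car3, a carbonic anhydrase, with signals of 689 and 849.8 at 3 days and 15.4 and 13.3 at 7 days (-4.52, SE 0.14). Igfbp2 and Igfbp3 encode proteins that bind insulin-like growth factors. Igfbp2 had signals of 2129.6 and 2127 at 3 days and 137 and 120.4 at 7 days (-3.85). Igfbp3 had signals of 411 and 413 at 3 days and 32.6 and 36.4 at 7 days (-2.99). The matrix gene Fbln2 (-3.53) and the annexin Anxa3 (-2.85) also fell. Car3, Igfbp3, Fbln2 and Anxa3 were under 50 on both 7 day arrays and so entered the test through day 3 alone. Between the days, 22 genes went from under 25 on both arrays to 100 or more on both, and 17 went the other way, among them Car3, Hk2, Hmmr, Ankrd37, Anxa3 and Depdc1a, a gene of cell division.

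The same days in rcCHIL3 share no array with this time course, so the 2 time effects can be set side by side. Over 8975 genes the changes correlated with r = 0.3, a description across genes, which are not independent replicates. The spread of the change was larger in MHM + GF (SD 0.61) than in rcCHIL3 (SD 0.41), and at least 2-fold changes numbered 769 and 306. Of the genes that rose in MHM + GF, 981 rose in rcCHIL3 as well, which is 32.1% of the first list and 53.7% of the second, and 355 fell there. Over all tested genes, 20.4% rose and 18.1% fell in rcCHIL3. Of those that fell in MHM + GF, 727 fell in rcCHIL3 as well (33.4% and 44.9% of the lists) and 307 rose, beside 34.0% of all tested genes that rose and 24.2% that fell in MHM + GF. The difference of the time effects was tested in the same model. It was called higher in MHM + GF for 24.1% of all tested genes and lower for 19.2%. The largest differences in favour of MHM + GF were those of Dlx1 (5.88), Dlx2 (3.94) and Insm1 (3.76). Insm1, a factor of neuronal progenitors, had signals of 47.6 and 62.7 at 3 days and 327 and 329 at 7 days in MHM + GF. In rcCHIL3 it fell, with 102 and 122 at 3 days and 23.8 and 26.6 at 7 days. The largest the other way were those of Igfbp2 (-4.73), which in rcCHIL3 had signals of 182 and 159 at 3 days and 317 and 345 at 7 days, and Fn1 (-4.57). A2m, the protease inhibitor alpha-2-macroglobulin, fell in MHM + GF from 824 and 807 to 400.2 and 393 and rose in rcCHIL3 from 73.6 and 73 to 676 and 654. Because the media also differed at 3 days, the time effects start from different levels.

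**Figure D4:**
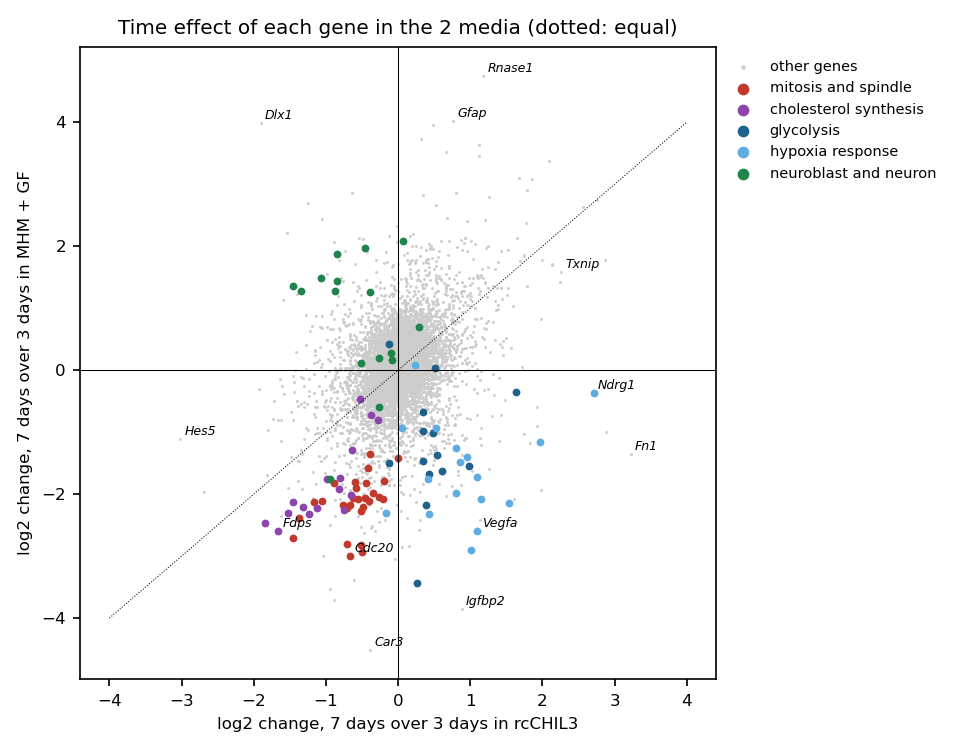
Log2 change from 3 to 7 days in MHM + GF (vertical) against that in rcCHIL3 (horizontal) for 8603 genes, with 5 lists in colour and a dotted line of equal change. Glycolysis and hypoxia genes lie mostly at the lower right, most neuroblast genes at the upper left, and mitosis and cholesterol genes at the lower left, every mitosis gene below the dotted line.

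All 8 arrays were alike in range. Between 30.13% and 31.47% of probe sets reached a signal of 50, and arrays of a group correlated with r of 0.9917 to 0.9943. The ratio of the 3′ to the 5′ probe set of Actb, a sign of RNA integrity, was 1.35 and 1.33 at 3 days in MHM + GF and 1.65 and 1.83 at 7 days. In rcCHIL3 it was 1.41 and 1.34, then 1.46 and 1.57, and that of Gapdh lay between 0.75 and 0.89 on all 8 arrays. The part of this ratio in the changes above was not tested. More than 1 probe set was tested for 3276 genes, and in 203 of them probe sets were called both ways.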

How the data were processed

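The authors made the signal intensities from the scanned arrays (Affymetrix Mouse Genome 430 2.0, 8 arrays, 2 in each of 4 groups) with the MAS5 algorithm and global scaling, in Affymetrix Expression Console 1.1 per the labels and GeneChip Operating Software per the methods, and deposited them as linear values. The deposited arrays averaged 267.28 to 316.55, so each was rescaled to an average of 100. Values were compared as log2(signal + 20). Probe sets that reached 50 on at least 2 of 8 arrays were kept, without 64 control probe sets. limma 3.58.1 (R 4.3.3) was fitted to 4 group means with a trend and 4 residual degrees of freedom, and p was adjusted by Benjamini-Hochberg over all 15679 probe sets. Tables were made in Python 3.11.15 with numpy 2.4.6, pandas 2.3.3 and, for plots, matplotlib 3.10.9. The test was tried on simulated data with known changes.

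Symbols came from the platform annotation, with 34958 probe sets naming 1 gene, 932 several and 9211 none. The probe set with the highest mean over the 8 arrays stood for each gene. The members and the 38 gene lists were chosen with earlier results of these data known. Genes were named by rule, namely the 15 largest rises and 15 largest falls at a signal of at least 200 on the brighter day, the largest changes of each list, the 6 largest switches and media differences each way, and the cell type markers. Further list members were named for their role after their values had been seen. The 2-fold call and the methods' t-test were added after the data had been seen. The arrays were treated as unpaired, since the labels state no pairing. Between arrays with the same replicate number the deviations correlated with r from -0.011 to 0.102, which cannot settle whether experiments were shared. The number of arrays limits the precision. The labels name Trizol and the study's methods a column kit for the RNA, and the methods name C57BL/6J adults and ICR embryos without saying which gave the cells of these arrays. Present and absent calls were not used here.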

Additional observations from a re-analysis of the deposited data

Results flagged for a closer look

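The time effect in MHM + GF was set against that in rcCHIL3 by the difference of the 2 changes in the limma model, and 6490 probe sets passed. Groups of 2 arrays were too small to be searched for outlying arrays. The time effect was higher in MHM + GF by 5.88 on the log2 scale for Dlx1, by 3.94 for Dlx2, by 3.76 for the neuronal progenitor factor Insm1, by 3.57 for Rnase1, by 3.50 for the retinol dehydrogenase Rdh5 and by 3.46 for the matrix gene Efemp1. Dlx1, Dlx2, Insm1 and Rdh5 rose in MHM + GF and fell in rcCHIL3, and Rdh5 went from 91.4 and 86.7 to 556 and 585 in the first and from 858 and 763 to 373 and 379.7 in the second. Rnase1 rose in both media, by 4.75 in MHM + GF and by 1.18 in rcCHIL3.

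The difference was -4.73 for Igfbp2, -4.57 for Fn1, -4.13 for Car3, -3.91 for the selenium-binding protein gene Selenbp1, -3.88 for A2m and -3.69 for Vegfa. All of these except Car3 fell in MHM + GF and rose in rcCHIL3. Selenbp1 went from 280.3 and 259 to 51.2 and 60.1 in MHM + GF and from 35.6 and 27.2 to 176 and 188 in rcCHIL3. Car3 fell in MHM + GF from a high signal, and in rcCHIL3 it was under 50 on all 4 arrays, so its time effect there is that of a dim probe set.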

How the results depend on the processing

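From 3 to 7 days in MHM + GF 4879 probe sets were called higher and 4077 lower, and 6490 differed in time effect from rcCHIL3. Leaving out 1 array at a time gave 4019 to 4238, 3392 to 3779 and 5238 to 6210, and the lone array of a group is then assumed to vary like the others. The replicate block gave 4994, 4213 and 6755, and the numbers pair no samples in the labels. On the deposited scale 45.4% of calls were higher (54.5% on the rescaled signals), 52.1% after quantile normalization and 50.7% after median centring. With no p, the rule of 1 direction in all 4 pairs of arrays and 2-fold gave 966 higher and 946 lower. Of the rules added after the data had been seen, 2-fold on top of the adjusted p gave 595 and 658, and the methods' t-test gave 3632 and 2951 unadjusted and 1298 and 1078 adjusted. The first of these counts fewer by construction, and for the t-test the cause was not tested. Among 237 named genes and 16 alternatives, 3679 of 3747 values kept their direction and side of the threshold, 57 lost the call, 11 gained one and none reversed. No median of 36 lists changed sign with the scale. Of 1152 list counts recomputed 67 moved by over 1.5 times, nearly all of them counts under 8 genes. Of 368 list counts of at least 8 genes 1 moved by over 1.5 times, axon guidance genes higher, from 8 to 5 on the deposited scale. With 2 arrays in a group, dim genes near 50 are limited by background signal.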

Other observations

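A further set of genes went from a signal under 25 on both 3 day arrays to 100 or more on both 7 day arrays in MHM + GF. By that rule they entered the test through day 7 alone. Besides Rnase1, Efemp1 and Dlx1, the brightest were Rnase4, a secreted ribonuclease, with signals of 23.3 and 18.1 at 3 days and 464 and 505 at 7 days, Fxyd1, a regulator of the sodium pump, with 16 and 18.5 at 3 days and 374 and 442 at 7 days, and Cyp1b1, a cytochrome P450 enzyme, with 16.2 and 22.8 at 3 days and 299 and 337 at 7 days. Galectin-3, Lgals3, and the calcium-binding S100a4 lay just outside that set, each with 1 of the 3 day arrays above 25. Their 3 day signals were 19.7 and 27.4 for Lgals3 and 20.5 and 27.9 for S100a4. At 7 days the signals were 302 and 397 for Lgals3 and 419.5 and 512 for S100a4. In rcCHIL3 Rnase4 had signals of 39.9 and 35.4 at 3 days and 105 and 105 at 7 days, Fxyd1 of 225 and 222 at 3 days and 367 and 367 at 7 days, Cyp1b1 of 70.3 and 67.6 at 3 days and 262 and 265 at 7 days, Lgals3 of 114 and 110.2 at 3 days and 439 and 475 at 7 days and S100a4 of 463 and 504 at 3 days and 981 and 1175 at 7 days, so that Rnase4 was under 50 there at 3 days.

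Among genes of acetate and fatty acid use, the acetyl-CoA synthetase Acss2 fell from 553 and 641 to 147 and 160.2 and the elongase Elovl6 from 391 and 419.9 to 139.9 and 186. The glucocorticoid-responsive factor Klf9 (-0.71) and the cyclin Ccng2 (-0.73) fell in a list of autophagy and FoxO targets that otherwise rose in 11 of 15 genes. Ifitm3, an interferon-induced membrane protein, fell in MHM + GF from 337 and 297 to 125 and 139 and rose in rcCHIL3 (1.40). Among the growth factor receptors, Ntrk2, the BDNF receptor, rose by 0.96 and Lifr, the receptor of leukaemia inhibitory factor, fell (-0.67).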
